A study of Mus musculus with 92 samples.

Results

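The genes of the cytosolic ribosomal proteins were taken from a table of quadriceps muscle expression. A gene was a member if its symbol was Rps or Rpl with a number, with at most a closing a, x, y or l, or if it was Rpsa, Rplp0, Rplp1 or Rplp2. Pseudogene copies and the Rps6k kinases were left out. The rule gave 81 of 13441 genes, 32 of the small and 49 of the large ribosomal subunit. Fau, whose product is cut to a ribosomal protein and a ubiquitin-like part, falls outside it. The animals were 92 DOz mice, Diversity Outbred mice, which descend from several inbred founder strains and differ from one another in genotype. They ate standard rodent chow and were 18 to 20 weeks old. The labels give 1 group, with no genotype, sex or treatment that differed between animals. The study is about ceramides with very long acyl chains and insulin resistance, neither of which was analysed here. The labels do not say that an animal gave more than 1 library, so the animal was the unit of every test.

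The ribosome is built from a small subunit, which reads the messenger RNA, and a large subunit, which joins amino acids. Most of its proteins are needed in equal numbers. The messenger RNAs of ribosomal proteins are short, abundant and mostly start with a cytosine followed by a run of pyrimidines. This is the TOP motif, through which mTOR and LARP1 control their translation. A few ribosomal proteins have a second gene. Rpl3l is the copy of Rpl3 that striated muscle uses, and Rpl3 sits near the site where peptide bonds form. In muscle the supply of ribosomes limits how much protein fibres can make, and assembly takes place in the nucleolus with the help of factors such as Ncl, Fbl and Npm1.

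The start of several members shows this motif. RefSeq promoter windows (mouse build GRCm38.p6, 250 bases before to 50 bases after the gene start) matched 61 members, some with more than 1 start, and a match in any window of a gene counts. A cytosine at the start followed by at least 4 pyrimidines was found in 13 of them, 21.3%, against 3.01% of the 27025 genes with a window and 3.13% of the 10120 such genes in the table. Each line below gives 30 bases, 15 before the start and 15 from it on, with capitals for the pyrimidine run that begins at the start. The first 5 genes have the run, and Rps27l, Rpl22l1 and Rpl3l, second copies of Rps27, Rpl22 and Rpl3, have none at this start. Lack of the run is not particular to second copies, as 48 of the 61 members lack it. Rpl22 itself has none at its starts, and Rpl3 has no window.
Rpl35 (chr2:39005117-39005146, minus strand): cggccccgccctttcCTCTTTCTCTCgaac
Rps6 (chr4:86857353-86857382, minus strand): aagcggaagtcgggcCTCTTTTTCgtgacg
Rpl28 (chr7:4792950-4792979, plus strand): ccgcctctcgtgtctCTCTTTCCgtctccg
Rps18 (chr17:33955651-33955680, minus strand): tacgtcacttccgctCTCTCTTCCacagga
Rps27 (chr3:90213634-90213663, minus strand): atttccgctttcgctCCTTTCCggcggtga
Rps27l (chr9:66946071-66946100, plus strand): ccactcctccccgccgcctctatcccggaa
Rpl22l1 (chr3:28805493-28805522, plus strand): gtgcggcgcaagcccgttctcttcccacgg
Rpl3l (chr17:24727811-24727840, plus strand): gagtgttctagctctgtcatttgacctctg

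A match in these windows is a description of letters. CCGGAAG, the core of sites for ETS-family factors, was present on either strand in 25 of the 61 members, 40.98%, against 9.93% of all genes with a window and 19.5% of those in the table. CTCTTTC, which can overlap the start run, was present on either strand in 18 members, 29.5%, against 9.28% and 8.78%. CAGCTG, an E-box of the kind that muscle regulators such as MyoD bind, reads the same on both strands. It was present in 3 members, 4.92%, against 18.3% and 18.2%. Rpl3l was one of them. The 250 bases upstream of its first RefSeq start are given with the CAGCTG in capitals, because Rpl3l is known for its restriction to striated muscle.
Rpl3l (chr17:24727576-24727825, plus strand): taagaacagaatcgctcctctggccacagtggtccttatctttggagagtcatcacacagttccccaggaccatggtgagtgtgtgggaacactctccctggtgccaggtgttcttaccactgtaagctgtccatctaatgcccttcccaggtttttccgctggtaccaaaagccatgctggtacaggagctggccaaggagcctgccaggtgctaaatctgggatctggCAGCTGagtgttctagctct

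All 81 members had means above the median gene of the table. Values are log2 of a quantity close to a per-million share, called the log2 value here. Member means ran from 3.69 to 8.73, with a median of 6.85 against 3.48 over all genes, and the lowest single value of any member was 2.69. Together the members took 1.01% ± 0.10 (SD, n = 92) of the summed linear values of an animal, with a lowest share of 0.829%, a median of 1.003% and a highest of 1.39%. The small subunit made up a median of 0.379% and the large subunit 0.618%. Levels of different genes are compared per kilobase of a GENCODE transcript, the mean log2 value less the log2 of the length in kilobases. On that scale the middle of the members lay close together, with the 25th percentile at 6.72, the median at 7.23 and the 75th percentile at 7.59, against a median of 2.0 over all genes. Medians of the small and large subunit were 7.31 and 7.22.

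**Figure D1:**
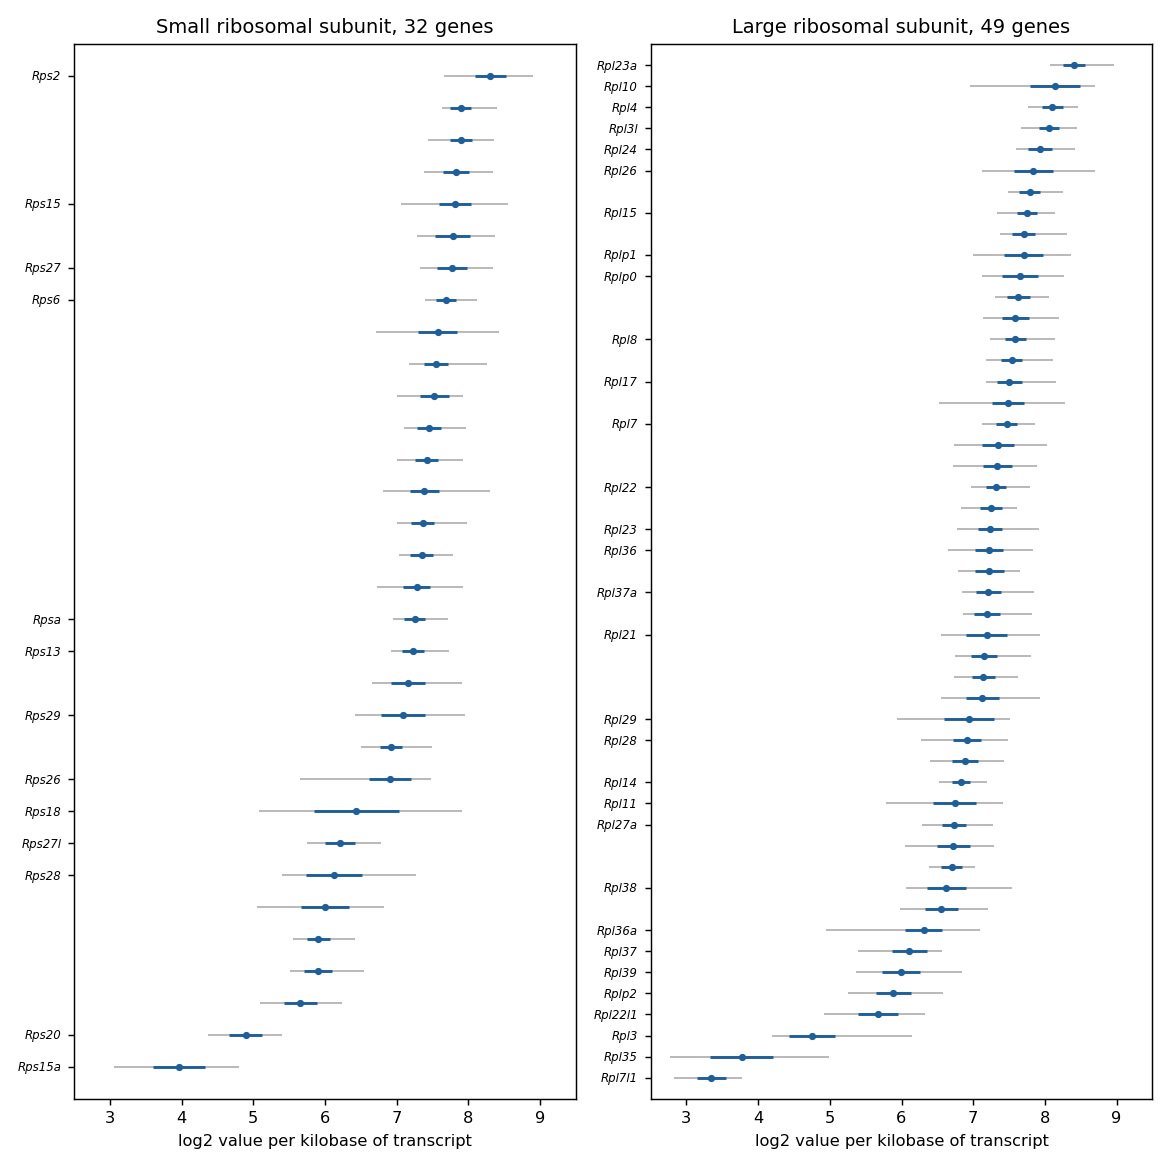
Mean level of each member as log2 value per kilobase of transcript (horizontal axis), small subunit left and large subunit right. Points are means over 92 animals, thick bars 1 SD and thin grey bars the lowest to highest animal; labels mark members described in the text. Most members lie between 6 and 8, and Rpl7l1, Rpl35 and Rps15a are the lowest.

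The members with the highest levels per kilobase were Rpl23a at 8.41, Rps2 at 8.31, Rpl10 at 8.14, Rpl4 at 8.11 and Rpl3l at 8.05. Rpl23a forms part of the exit of the peptide tunnel, Rps2 lies at the entry of the messenger RNA, and Rpl10 joins the large subunit late in its assembly. The lowest were Rpl7l1 at 3.35, Rpl35 at 3.77, Rps15a at 3.96, Rpl3 at 4.75 and Rps20 at 4.89. The values of Rps15a and Rps20 rest on annotated transcripts of 5130 and 3706 bases, far longer than the member median of 774 bases, so their place in this order depends on the transcript chosen. Without the length term Rps15a had a log2 value of 6.32 and Rps20 of 6.78, near the member median. Whether the deposited values already account for length is not given in the sources used here, and the order by log2 value differs, with Rpl4 (8.73), Rpl3l (8.51) and Rps2 (8.30) highest and Rpl23a at 7.57.

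Levels of most members differed little between animals. The median SD of a member was 0.20 on the log2 scale, and 34 of the 81 lay above the SD that a lowess trend over all genes gives at their mean, against 48.99% of all genes. The steadiest for their level were Rpl14 with an SD of 0.12, Rpl22 with 0.14, Rpl3l with 0.14, Rps6 with 0.14 and Rpl15 with 0.14. The widest for their level were Rps18 with an SD of 0.59, Rps15a with 0.36, Rpl29 with 0.35, Rpl10 with 0.35 and Rps28 with 0.39. Rpl35 had an SD of 0.43, where the trend gives 0.27 at its mean. With animals sorted by level and 5 or more left on each side, no member had a jump of 1 or more, and the widest was 0.28, in Rpl11.

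Rpl3l was the dominant form of its pair in every muscle. Of the 8 paralogue pairs listed, 5 were in the table, and the other pairs were not analysed here. The log2 value of Rpl3l had a lowest animal of 8.12, a mean of 8.51 ± 0.14 (SD, n = 92) and a highest of 8.91. Rpl3 ranged from 4.62 to 6.58, with a mean of 5.18 ± 0.32 (SD, n = 92), so the ranges did not overlap. Per kilobase Rpl3l was 9.89-fold higher, a log2 difference of 3.31 ± 0.40 (SD), and it was the higher of the pair in 92 of 92 animals. Rpl3 made up a median of 8.77% of the pair's summed level per kilobase, with a lowest of 5.71% and a highest of 25.9%. Of the 31-base words of the Rpl3 transcript 87.6% were also found in another GENCODE gene, and of Rpl3l 0%. Of the Rpl3 words 0% were in another gene of the table, and whether reads of its copies entered its value was not tested.

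In 3 of the other 4 pairs the second gene was the lower. Rpl22l1, which can replace Rpl22 at the ribosome surface, was 3.13-fold lower per kilobase, with a log2 value of 4.81 ± 0.28 against 6.24 ± 0.14 (SD, n = 92). Rps27l, a gene that p53 is known to induce, was 2.95-fold lower than Rps27, at 5.21 ± 0.21 against 6.24 ± 0.21. Rpl7l1 was 17.3-fold lower than Rpl7 per kilobase, and 7.74-fold lower without the length term, at 4.73 ± 0.20 against 7.68 ± 0.14. Rpl36al, which is no member by the rule, was 1.45-fold higher than Rpl36a, at 5.92 ± 0.19 against 5.26 ± 0.26. All 5 differences had the same direction in 92 of 92 animals. Each had p = 1e-05 in a two-sided sign-flip permutation test, which is the smallest p that 100000 resamples can give, and an adjusted p of 1e-05 over the 5 pairs.

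Rpl3 and Rpl3l varied in opposite directions. Over the 92 animals Pearson's r was -0.43 (two-sided permutation p = 6e-05, adjusted p = 0.0001 over 5 pairs) and Spearman's rho was -0.36 (permutation p = 0.00047, adjusted p = 0.000783). Animals 84 and 69, with the highest Rpl3 at 6.58 and 6.13, had the lowest Rpl3l at 8.12 and 8.12. Without the 2 animals farthest from the median of Rpl3l, r was -0.38. The sign was negative in 5 of 5 runs of title numbers, described below, with r from -0.66 to -0.04. This was also the most negative of all 3240 pairs of members. The relation depended on scaling and on cell markers: r was -0.11 (adjusted p = 0.291, permutation test) after quantile normalisation and -0.08 (adjusted p = 0.442, permutation test) in residuals on the macrophage marker score. In residuals on the transcript-length and GC slopes of each library, defined below, it was -0.64 (adjusted p = 5e-05, permutation test).

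**Figure D2:**
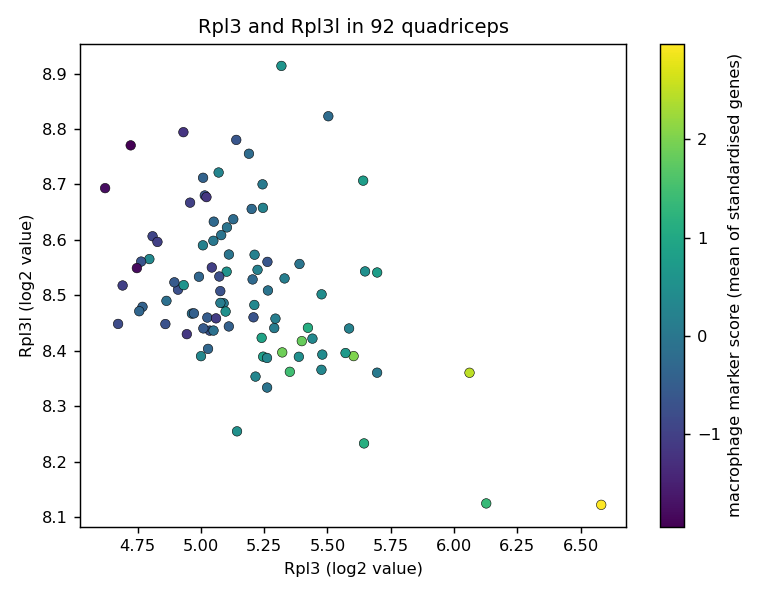
Log2 value of Rpl3 (horizontal) and Rpl3l (vertical) in each of 92 animals, coloured by the macrophage marker score, the mean of 10 standardised genes. Animals 84 and 69 sit at the lower right, and animals with high scores lie mostly to the right.

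The other paralogues varied in the same direction as their standard gene, or showed no clear relation. Rps27 and Rps27l had r = 0.53 (permutation p = 1e-05, adjusted p = 5e-05) and rho = 0.49 (permutation p = 1e-05). Rpl36a and Rpl36al had r = 0.44 (permutation p = 6e-05, adjusted p = 0.0001) and rho = 0.44 (permutation p = 2e-05). Rpl22 and Rpl22l1 had r = 0.39 (permutation p = 0.00012, adjusted p = 0.00015) and rho = 0.35 (permutation p = 0.00076). Rpl7 and Rpl7l1 had r = 0.12 (permutation p = 0.253, adjusted p = 0.253) and rho = 0.12 (permutation p = 0.262). Without the 2 farthest animals these values of r were 0.49, 0.41, 0.36 and 0.10. Within the runs of title numbers the lowest r of the Rps27, Rpl36a and Rpl22 pairs were 0.46, 0.07 and 0.05, while the Rpl7 pair reached -0.01. In residuals on the length and GC slopes the Rpl22 pair fell to 0.16 (adjusted p = 0.166, permutation test) and the Rpl36a pair to 0.22 (adjusted p = 0.0654, permutation test).

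Markers of macrophages and fibroblasts moved with Rpl3 and against Rpl3l. All 10 macrophage genes, among them Adgre1, Csf1r, Cd68 and Lyz2, were in the table. Each correlated positively with Rpl3 (r from 0.39 to 0.79) and negatively with Rpl3l (r from -0.47 to -0.37). Their summed linear level ran from 68.8 to 724 with a median of 141, and the lowest gene mean was 1.59 on the log2 scale, so none was absent. Score and Rpl3 had r = 0.77, and score and Rpl3l r = -0.50, as descriptions over 92 animals that share library composition. The 8 fibroblast genes gave 0.62 and -0.42, with a summed level from 462 to 2323. The 8 striated muscle genes, which hold the tissue's defining markers, gave -0.53 and 0.42, with a summed level from 102016 to 181829. Singly they were mixed, with r from -0.61 to 0.06 with Rpl3 (1 positive) and from -0.22 to 0.47 with Rpl3l (1 negative). In whole muscle, fewer cells of a type and less RNA per cell cannot be told apart.

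In limma, with a slope in log2 units per SD of the score and Benjamini-Hochberg adjustment over all genes, 2 of the 81 members changed with the macrophage score, where 22% of all genes tested were called. They were Rpl3, which rose by 0.25 ± 0.02 (SE, adjusted p = 3.3e-17), and Rpl3l, which fell by 0.07 ± 0.01 (SE, adjusted p = 1.85e-05). The median slope of the members was 0.01. At an unadjusted p under 0.05 the count was 10. Quantile normalisation raised the count to 22 members, all rising and without Rpl3l, against 17.9% of all genes. Length and GC slopes as covariates gave 10 rising and 2 falling, against 24.8%. With the first 3 principal components as covariates 0 of 81 members were called in limma, against 0.774% of all genes, with 4 at an unadjusted p under 0.05, and the slopes were 0.00262 for Rpl3 and -0.000411 for Rpl3l. With the fibroblast score 4 of 81 members changed, against 21.2% of all genes: Rpl3 rose by 0.20, while Rpl3l (slope -0.06), Rpl4 (slope -0.05) and Rpl8 (slope -0.04) fell. Quantile normalisation gave 6 rising and 0 falling, against 16.7% of all genes called in either direction. With the first 3 principal components 0 of 81 were called in limma, against 0.417% of all genes, with 2 at an unadjusted p under 0.05, and the slopes of Rpl3 and Rpl3l turned, to -0.0695 and 0.0201.

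Scores of fat cells and of slow fibres moved with no member at the threshold. In limma 0 of 81 members changed with the adipocyte score, against 3.8% of all genes, and 17 passed 0.05 without adjustment. With the slow fibre score 0 of 81 changed, against 0.811% of all genes, and 3 passed 0.05 without adjustment. The adipocyte count was 44, all rising, once the first 3 principal components of the table were covariates, against 13.1% of all genes. Fast glycolytic fibre markers, as a score, had r = 0.43 with Rpl3l and -0.34 with Rpl3.

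The members that changed with Rpl3l or with Rpl3 rose with it, apart from Rpl3 and Rpl3l themselves. With Rpl3l as the predictor, 31 of 80 members changed in limma, 30 rising and 1 falling, against 20.1% of all genes in either direction and 10.4% rising. The member that fell was Rpl3. Large rising slopes were those of Rpl22l1 (0.10), Rps2 (0.09), Rpl36 (0.09) and Rpl8 (0.09). With Rpl3 as the predictor, 48 of 80 changed, 47 rising and 1 falling, against 25.3% of all genes and 12.1% rising. The member that fell was Rpl3l, and the largest rising slopes were those of Rpl35 (0.14), Rpl39 (0.13), Rps28 (0.13), Rps15a (0.11) and Rpl38 (0.11). Median member slopes were 0.04 on Rpl3l and 0.05 on Rpl3, against medians near 0 over all genes. Length and GC slopes as covariates left 3 rising and 7 falling on Rpl3l, against 15.7% of all genes, and 20 rising and 2 falling on Rpl3, against 26.4%. Other settings moved the Rpl3l count widely, all of it rising: 52 after quantile normalisation, against 20.7% of all genes, 49 with 7 marker scores as covariates, against 17.6%, and 16 with the first 3 principal components, against 8.37%. On Rpl3 the first 3 principal components left 0 of 80 members and 0% of all genes called in limma, with 49 members at an unadjusted p under 0.05.

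A direct test set the slopes on Rpl3l and Rpl3 against each other in 1 limma model. They differed for 5 of 79 members, 2 rising more with Rpl3l and 3 with Rpl3, against 22.8% of all genes. Rpl8, which lies next to the peptidyl transferase centre, rose more with Rpl3l, by 0.06 ± 0.01 (SE, adjusted p = 0.00039). Rpl39, Rpl37 and Rpl23 rose more with Rpl3, with differences of -0.09 (adjusted p = 0.0188), -0.08 (adjusted p = 0.0303) and -0.05 (adjusted p = 0.0387). With the first 3 principal components as covariates no gene of the table was called in limma, and 21 members were at an unadjusted p under 0.05. The count was 19 with length and GC slopes as covariates, against 24.4% of all genes, 11 without the 2 farthest animals, against 14.5%, 8 after quantile normalisation, against 18.6%, and 2 with 7 marker scores, against 1.82%.

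The elongation factor eEF1A, which carries aminoacyl-tRNA to the ribosome, has a widely used gene, Eef1a1, and a muscle and nerve gene, Eef1a2. Eef1a1 rose with Rpl3 (slope 0.26, adjusted p = 2.06e-17 in limma) and fell with Rpl3l (slope -0.15, adjusted p = 0.00022). Eef1a2 rose with Rpl3l (slope 0.09, adjusted p = 1.28e-07). In the model that holds both predictors, whose slopes differ from these single-predictor slopes, the slope on Rpl3l less that on Rpl3 was -0.28 for Eef1a1 (adjusted p = 6.46e-16) and 0.09 for Eef1a2 (adjusted p = 2.3e-06). Eef1a1 also rose with the macrophage score, by 0.26 (adjusted p = 2.43e-18). Of 22 TOP and translation genes outside the members, 10 rose and 3 fell with Rpl3l, where 20.1% of all genes were called. With Rpl3, 4 rose and 1 fell, a share near the 25.3% of all genes called.

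Outside the members, the genes whose pattern over the 92 animals was most like Rpl3l were Slc25a4 (r = 0.73), Tle5 (0.71), Atp5f1b (0.71), Ndufs7 (0.71) and Mrpl2 (0.71). Slc25a4 is the ADP/ATP carrier of muscle mitochondria, Atp5f1b the catalytic subunit of ATP synthase, Ndufs7 a subunit of complex I and Mrpl2 a protein of the mitochondrial ribosome. Those most like Rpl3 were Tmsb10 (r = 0.80), Lgmn (0.80), Cd68 (0.79), Lyz2 (0.79) and Eef1a1 (0.78). Cd68 and Lyz2 belong to the macrophage list.

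The members rose and fell together from animal to animal. The median r over the 3240 pairs of members was 0.53, with 10th and 90th percentiles of 0.19 and 0.76, while the median over all pairs of genes in the table was -0.0015. Of the member pairs 53, or 1.64%, were negative. The proteins of the mitochondrial ribosome, 78 genes, had a median of 0.27. The first principal component of the standardised members held 54.04% of their variance, with the same sign for all 81, and the second held 7.49%. Pairs within the small subunit had a median r of 0.54, pairs within the large subunit 0.52 and mixed pairs 0.53.

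**Figure D3:**
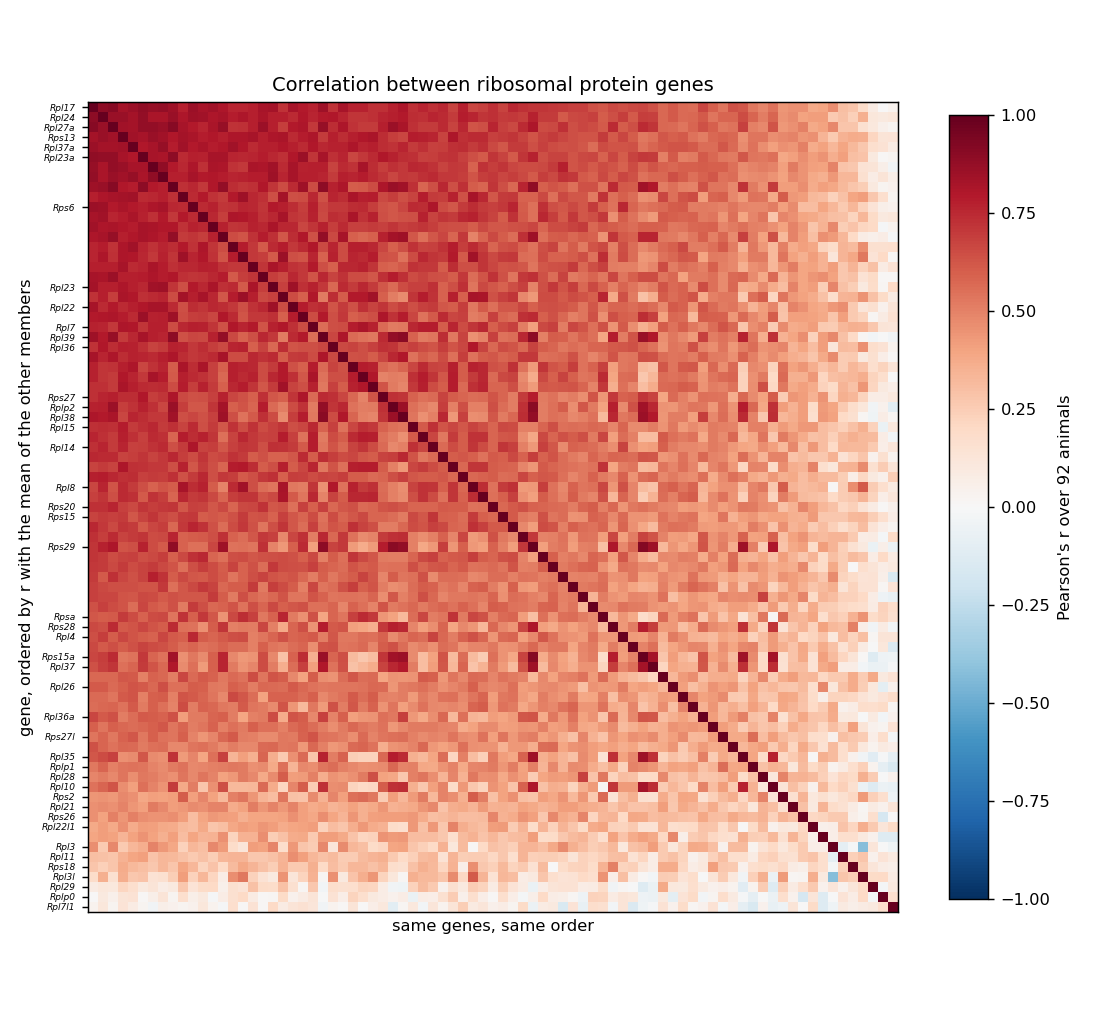
Pearson's r over 92 animals for all pairs of the 81 members, in the same order on both axes, from the highest to the lowest r with the mean of the other members. Red marks positive and blue negative r, labels mark members described in the text, and the pale band at the end holds Rpl3, Rpl11, Rps18, Rpl3l, Rpl29, Rplp0 and Rpl7l1.

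For each member r was taken with the mean of the other 80. It was at least 0.5 in 70 members and at least 0.8 in 29, with a median of 0.76. The highest values belonged to Rpl17 (0.94), Rpl24 (0.93), Rpl27a (0.93), Rps13 (0.92) and Rpl37a (0.91), all structural proteins with no paralogue among the listed pairs. Below 0.4 were 7 members: Rpl7l1 (0.08), Rplp0 (0.10), Rpl29 (0.17), Rpl3l (0.30), Rps18 (0.34), Rpl11 (0.35) and Rpl3 (0.36). Rpl7l1 is known from precursors of the large subunit, Rplp0 is the base of the acidic stalk that binds elongation factors, and Rpl11 is also known as an inhibitor of Mdm2. The 13 members with the pyrimidine start shown above had a median of 0.79, and the other 48 with a window 0.70. Genes outside the members most like their mean were Rpl35rt (r = 0.91), Fau (0.86), Eef1b2 (0.81), Sem1 (0.81) and Atp5mj (0.80).

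This shared variation moved with a property of the whole library. For each animal the other genes' deviations were fitted on log2 transcript length and GC percent together, both standardised over genes. The slope on length is called the transcript-length slope, and that on GC the GC slope. The transcript-length slope ranged from -0.15 to 0.11 log2 units per SD of log2 length. A negative slope means that short transcripts were relatively high in that library. Members are short, with a median of 774 bases against 2827 over all genes with a length, and 60 of 81 are under 1000 bases. The mean of the members had r = -0.84 with the slope, from -0.88 to -0.72 within the 5 runs of title numbers, and -0.81 without the 2 farthest animals. Animals 29 and 69 had the highest member means, 2.35 and 2.18 SD units, with slopes of -0.15 and -0.09.

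**Figure D4:**
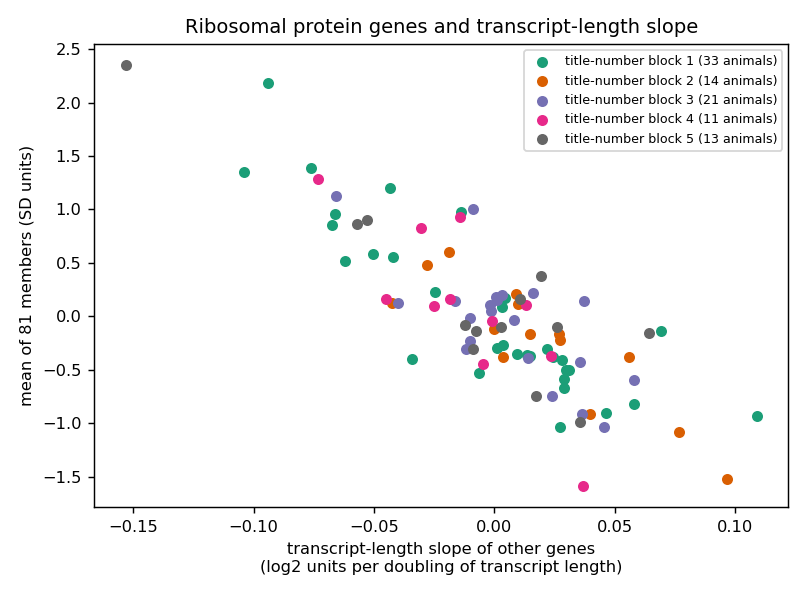
Mean of the 81 standardised members (vertical, SD units) against the transcript-length slope of the other genes (horizontal) in 92 animals, coloured by run of title numbers. The slope is in log2 units per SD of log2 transcript length, although the axis label says per doubling. The points fall from the upper left, where animals 29 and 69 lie, to the lower right.

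In limma 79 of 81 members fell with the transcript-length slope, against 16.9% of all genes falling and 35.3% called in either direction, and 0 rose. This fit was added after the values had been seen. The largest falls per SD were 0.18 in Rps28 (adjusted p = 2.27e-05), 0.18 in Rps18 (adjusted p = 0.0106) and 0.16 in Rpl35 (adjusted p = 0.0011). Rplp0 and Rpl7l1 were not called. The 60 under 1000 bases had a median r of -0.64 with the slope and the 21 longer ones -0.61. The 372 other genes under 1000 bases with means no lower than the lowest member had -0.47, and their median pair r was 0.19. Other lists moved with this slope too: 8 of 9 fast glycolytic fibre genes fell and 1 rose, 4 of 8 endothelial genes rose, and of 8 striated muscle genes 3 rose and 3 fell. Their part in the result was not tested. In residuals on the transcript-length slope and a matching GC slope the median pair r of the members fell from 0.53 to 0.25, that of the mitochondrial ribosomal proteins to 0.10 and that of the 372 short genes to 0.03. RNA quality values were not analysed here, and their part in the result was not tested.

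Many members rose with the genes of ribosome assembly. The score of 30 biogenesis genes, which holds no member, was the predictor. In limma 50 of 81 members rose and 0 fell, against 12.8% of all genes in either direction and 6.78% rising. The largest slopes were those of Rpl35 (0.15, adjusted p = 0.00999), Rpl10 (0.15, adjusted p = 0.000741), Rps28 (0.13, adjusted p = 0.0134), Rps15a (0.13, adjusted p = 0.00693) and Rpl26 (0.12, adjusted p = 0.000711). The median slope was 0.06 over the members and 0.00 over all genes. Neither Rpl3l (slope 0.03, adjusted p = 0.22) nor Rpl3 (slope -0.03, adjusted p = 0.548) was called. The count was 24 when the 2 animals with the most extreme scores were left out, against 11.2% of all genes, and 5 with length and GC slopes as covariates, against 8.68%. Of the 30 biogenesis genes themselves 11 fell and 2 rose with the transcript-length slope. Markers of cell types moved with the biogenesis score as well, with 5 of 8 fibroblast genes falling, 5 of 9 fast glycolytic fibre genes rising and 3 of 8 endothelial genes falling. Their part in the result was not tested.

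Translation genes outside the members also moved with that score. Of the 22 TOP and translation genes 15 rose and 0 fell, against 6.78% of all genes rising, and 16 of the 22 fell with the transcript-length slope. Among those that rose with the score were Npm1 (slope 0.11, adjusted p = 1.06e-05 in limma), a nucleolar chaperone, and Eef2 (slope 0.08, adjusted p = 0.000991), the translocation factor. Of 12 genes of mTOR and LARP1 control 4 rose and 0 fell with the score: Rheb (0.06), Larp1 (0.05), Myc (0.17) and Eif4ebp1 (0.14). With Rpl3 as the predictor 7 of these 12 fell and 2 rose, against 13.2% of all genes falling and 12.1% rising, and Eif4ebp2, an inhibitor of cap-dependent initiation, had a slope of -0.12 (adjusted p = 3.15e-07 in limma). The same list also moved with cell markers. With the macrophage score 6 of 12 fell, against 10.3% of all genes falling, and with the fibroblast score 6 of 12, against 9.5%. With the first 3 principal components as covariates no gene of the table was called on Rpl3. As descriptions, r with the mean of the members was 0.41 for the biogenesis score, 0.87 for the TOP and translation score and -0.09 for the mTOR and LARP1 score. It was 0.39 for the fast glycolytic fibre score. Within the 5 runs of title numbers r ran from -0.03 to 0.73 for the biogenesis score, from 0.70 to 0.92 for the TOP and translation score, from -0.34 to 0.15 for the mTOR and LARP1 score and from 0.01 to 0.64 for the fast fibre score.

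Rps18, the member with the widest spread, fell into separate runs of animals once it was set beside its processed copies. Rps18 lies at chr17:33951998-33955665 and encodes a protein of the head of the small subunit. Rps18-ps5, at chr13:28257615-28258138, held 76.04% of the 31-base words of the Rps18 transcript, and Rps18-ps6, also on chromosome 13, held 68.9%. The log2 value of Rps18 less that of Rps18-ps5 lay between -0.95 and 0.85 in 49 animals, between 1.90 and 2.83 in 38 and between 4.22 and 5.28 in 5. The empty gaps between these runs were 1.05 and 1.39 wide. Medians of Rps18 in the 3 runs were 5.11, 6.11 and 6.44, and medians of Rps18-ps5 were 5.16, 3.76 and 1.68. The difference from Rps18-ps6 separated the same 3 runs of animals without overlap. Medians of Rps18-ps6 in the runs were 4.95, 4.01 and -3.86. The last was the most repeated value of the table, listed 362 times (within 0.0001 log2 units) over 91 animals, with 347 values below it, and what it stands for is not given in the sources used here.

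**Figure D5:**
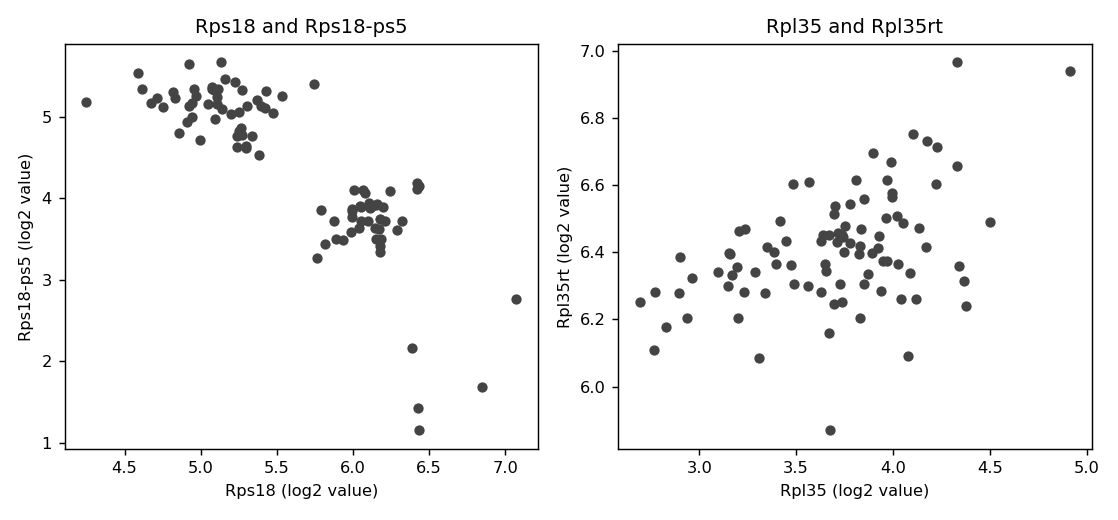
Left, Rps18 against Rps18-ps5, and right, Rpl35 against Rpl35rt, as log2 values in 92 animals. On the left the points form 3 separate clouds of 49, 38 and 5 animals; on the right they form 1 rising cloud with Rpl35rt far higher than Rpl35.

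Within the run of 49 animals Rps18 and Rps18-ps5 had r = -0.23, and within the run of 38 r = 0.40, both as descriptions. The log2 of the summed linear values of Rps18 and its 2 copies had medians of 6.65, 6.63 and 6.48 in the runs and an SD of 0.17 over the 92 animals, where Rps18 alone had 0.59. The sum had r = 0.89 with the mean of the other 80 members, and Rps18 alone 0.34. The genes with a mean of at least 1 that were most correlated with the difference, apart from these copies, were Cyp39a1 (r = 0.64), Enpp5 (-0.56), Zfp414 (-0.54), Pfdn6 (0.47) and Mmut (0.46). All 5 lie on chromosome 17, where Rps18 is, at 9.76, 10.1, 0.323, 0.0142 and 6.99 Mb from it. Animals of the first run came from all 5 runs of title numbers, as did those of the second, while of the 5 animals in the third 4 came from the first run of title numbers and 1 from the fifth. The level listed for Rps18 alone is therefore uncertain, and the runs are not groups of the study.

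Other members shared sequence with genes of the table. In 11 of 81, over 30% of the 31-base words were also found in another gene of the table, and over all GENCODE genes the median member shared 62.2%. Rpl35, the lowest member without a length term at 3.69 ± 0.43 (SD, n = 92), shared 40.9% with Rpl35rt and 61.9% with its neighbour Wdr38. Rpl35rt had 6.41 ± 0.17 (SD, n = 92), and the pair had r = 0.48. With the other members Rpl35rt had r = 0.91 and Rpl35 0.57. Rpl10 shared 92.3% with Rpl10-ps3, which ranged from -3.86 to 7.22, and the pair had r = -0.51. Their sum had an SD of 0.17 and r = 0.70 with the other members, against 0.35 and 0.53 for Rpl10 alone. The levels of Rpl35 and Rpl10 are uncertain where reads could be split between such genes, which was not tested.

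The second principal component of the members separated 2 ends of the set. At 1 end of the second principal component were Rps15a, Rpl10, Rpl35, Rpl37 and Rps29, whose pairs had r from 0.73 to 0.92, the highest being Rps15a with Rps29. In residuals on the length and GC slopes the range was 0.69 to 0.92. These 5 were picked by their loading, and members outside them correlated as highly, such as Rplp2 with Rps29 (r = 0.90), Rpl39 with Rps29 (0.89) and Rpl38 with Rps15a (0.85). Toward the other end lay Rpl3l, Rpsa, Rpl8 and Rpl29. Cycs, which encodes cytochrome c, had r = 0.84 with Rps29, 0.81 with Rps15a, 0.79 with Rpl35, 0.75 with Rpl10 and 0.71 with Rpl37, against 0.48 with the mean of the members. Rps15a had r = 0.88 with Atp5me, a subunit of ATP synthase, and -0.66 with Klf10, a zinc finger factor. Cycs, Atp5me and Klf10 were picked after their values had been seen.

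Chromosomal neighbours were the most similar gene outside the set for a similar share of members and other genes, before length and GC slopes were removed. Among the genes searched, the most correlated gene with a mean of at least 1 lay within 5 Mb for 8 of 81 members, 9.88%. The share was 10.6% of the 10611 other genes. Not every gene of the table was searched. For Rps15a the search gave Cycs (r = 0.81), while Atp5me, which was not searched, had 0.88. In residuals on the length and GC slopes the counts were 19 of 81 members, 23.5%, against 12.2% of other genes. Rps26 and Suox, a sulfite oxidase gene, had r = 0.71, and Rps2 and Stub1, Rpl29 and Abhd14a, and Rps15 and Jsrp1 each had 0.70. These 4 partners kept first place in the residuals, with r of 0.73, 0.50, 0.67 and 0.60. Rpl21 and Gtf3a, the transcription factor of 5S ribosomal RNA, had 0.64, and 0.66 in the residuals. Rpl6 with Arl6ip4 (0.67) and Rps3 with Tpbgl (0.66) did not keep first place in the residuals, where other genes within 5 Mb, Tpcn1 and Trim12c, took it. This count was added after the values had been seen.

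The titles of the samples end in numbers that form 5 runs, of 33, 14, 21, 11 and 13 animals. Their meaning is not given. In limma 0 of 81 members differed between the runs, against 0.0149% of all genes, and 0 passed 0.05 without adjustment. Mean shares of the members in the 5 runs lay between 0.993% and 1.03%, with SDs from 0.0851 to 0.121 percentage points.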

How the data were processed

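The deposited values are log2 expression values of 13441 genes in 92 samples, after 15 repeated lines were removed; the exact scaling is not given in the sources used here. Per the submitters' processing notes, bcl2fastq, kallisto 0.50.1, edgeR and MultiQC were used with mm10, and per the labels libraries came from the KAPA mRNA HyperPrep kit with 500 ng of RNA. Powers of 2 of the values summed to between 898071 and 1140761 per sample. Depth is unknown, so no counting interval was computed.

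Slopes were fitted per gene with limma 3.58.1 (R 4.3.3) with a mean-variance trend on standardised predictors, with Benjamini-Hochberg adjustment over all genes tested and a threshold of 0.05. The fitting script was tested on simulated data. Other statistics used Python with numpy and scipy, and 100000 resamples. Transcript lengths came from GENCODE M21, the shortest transcript among those ranked best. Scores of gene lists are means over their standardised genes. Coordinates and promoter windows are from RefSeq, GRCm38.p6. Members, gene lists, tests and the rule for named genes were chosen with earlier results of these data known. The rule named members by level per length (5 highest, 5 lowest), spread, limma slope (up to 5 in each direction), all paralogues, and the 5 most alike genes outside the members; some results it covers are not reported here. Alternatives were the title-number run, the first 3 principal components, length and GC slopes, or marker scores as covariates, quantile normalisation, a pseudocount of 1, and leaving out the 2 farthest animals.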

Additional observations from a re-analysis of the deposited data

How the results depend on the processing

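No paired analysis was possible because the labels give 1 group. Counts of members called by limma moved by more than 1.5 times as follows, with the share of all genes called in brackets. With the first 3 principal components as covariates the counts were 16 for Rpl3l (8.37%), 0 for Rpl3 (0%) and 0 for the slope difference (0%). They were 0 for the macrophage score (0.774%), 0 for the fibroblast score (0.417%) and 44 for the adipocyte score (13.1%). For the biogenesis score the count was 28, not set against all genes here. With length and GC slopes as covariates the counts were 10 for Rpl3l (15.7%), 22 for Rpl3 (26.4%) and 19 for the difference (24.4%). They were 12 for macrophage (24.8%), 7 for fibroblast (23.2%) and 5 for biogenesis (8.68%). Quantile normalisation gave 52 for Rpl3l, all rising (20.7%), 8 for the difference (18.6%), and 22 for macrophage, all rising (17.9%). Leaving out the 2 farthest animals gave 11 for the difference (14.5%) and 24 for biogenesis (11.2%). The title-number run as a covariate gave 5 for macrophage (22.2%) and 1 for adipocyte (4.01%). The 7 marker scores gave 49 for Rpl3l (17.6%), 2 for the difference (1.82%) and 19 for biogenesis, the last not set against all genes here. The cause of these changes was not tested.

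For the difference between the slopes on Rpl3l and on Rpl3, the split was 1 rising and 7 falling after quantile normalisation, against 2 and 3 without it. The Rpl3 and Rpl3l correlation was -0.15 after removal of 3 principal components, -0.11 after quantile normalisation, -0.0817 after removal of the macrophage score and -0.0666 after removal of 7 marker scores. That of Rpl22 and Rpl22l1 was 0.16 with length and GC slopes removed and 0.17 with the macrophage score also removed; that of Rpl36a and Rpl36al was 0.22 with length and GC slopes removed. The median pair correlation of members was 0.38 without the first 3 principal components, 0.25 without length and GC slopes and 0.47 without the 2 farthest animals. The summed share was 1.16% without Rpl3l and the 13 genes of the mitochondrial genome.

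Of the values of single genes under alternatives, 259 kept direction and call, 63 kept direction only and 6 turned, all with the first 3 principal components as covariates: on the fibroblast score Rpl3 -0.0695 and Rpl3l 0.0201, on the adipocyte score Rpl3l 0.0483, on the slow fibre score Rpl3l 0.00864, and on the biogenesis score Rpl3 0.0285 and Rpl3l -0.00104. Depth is unknown, so precision rests on the spread between animals alone. Each level rests on how reads were shared between near-identical copies.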
